A study of Saccharomyces cerevisiae with 12 samples.

Results

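Messenger RNA levels of 9 yeast genes that act directly on damaged bases and on the strand breaks left behind were described in *anc1*Δ and wildtype cells, with and without the methylating agent methyl methanesulfonate (MMS). The genes were taken by name and function, and no measured value enters the rule, although results of these data were known when the set was chosen: the DNA glycosylase genes *MAG1*, *NTG1*, *NTG2*, *OGG1* and *UNG1*, the AP endonuclease genes *APN1* and *APN2*, the DNA 3′ phosphatase gene *TPP1*, and the methyltransferase gene *MGT1*. All 9 were measured, each by 1 probe set that names no other gene, out of 5656 genes on the array. No member was left out for a low signal.

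In base excision repair a glycosylase cuts a damaged base from the sugar, an AP endonuclease opens the strand at the bare (AP) site, the blocked ends are cleaned, and a polymerase and a ligase fill and seal the gap. MMS methylates ring nitrogens of purines, and yeast removes such bases mainly with Mag1. *MAG1* is a textbook example of a damage-inducible repair gene. Methyl groups on the oxygen of guanine are instead moved onto a cysteine of the protein Mgt1, which is used up in the reaction.

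Total RNA was hybridized to 12 Affymetrix YG-S98 arrays, 3 in each of 4 groups: *anc1*Δ cells with MMS, *anc1*Δ cells without MMS, wildtype cells with MMS and wildtype cells without MMS. The study calls its strains congenic with BY4741 (*MATa his3*Δ1 *leu2*Δ0 *met15*Δ0 *ura3*Δ0), except those of its spontaneous mutagenesis and trinucleotide repeat assays. The array methods give the rich medium YPD. The *anc1*Δ cells lack *ANC1* (*TAF14*), which encodes a subunit of several RNA polymerase II complexes. These methods name 3 independent colonies of each strain and a G418 resistance marker at *anc1*, and do not name the background. For *anc1*Δ the strain list of the study gives a *URA3* marker in BY4741. It gives kanMX4, the G418 resistance cassette, for *anc1*Δ in *MAT*α strains of other backgrounds. The background of the *anc1*Δ cells on the arrays is thus not settled here. For the arrays with MMS the sources used here give neither dose, nor time, nor whether the cultures were separate, and the spread on which their p-values rest may thus be a technical one. The 3 wildtype arrays titled as treated carry untreated source names, and 3 *anc1*Δ arrays carry descriptions that name wildtype. The titles were followed.

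Values are intensities on a linear scale after Robust Multichip Average (RMA) normalization, and their number limits the precision. *TAF14*, the deleted gene, measured 10.2 ± 3.5 in *anc1*Δ cells with MMS, 10.4 ± 4.7 in *anc1*Δ cells without MMS, 189 ± 12.4 in wildtype cells with MMS and 285 ± 62.9 in wildtype cells without MMS (SD, n = 3 each), and was low on all 6 *anc1*Δ arrays. Among 16 measured damage-induced genes, 14 were higher and 2 lower in the arrays titled wildtype treated than in untreated wildtype. Of all genes, 27.7% were higher and 20.8% lower in that comparison. *URA3* lay between 7.2 and 17.2 on all 12 arrays. The genes proper to *MATa* cells, *MFA1*, *MFA2*, *STE2* and *BAR1*, were lower in *anc1*Δ than in wildtype in both conditions, with log2 differences between −3.77 and −1.97, and *STE3*, the receptor gene of the other mating type, lay between 11.7 and 23.2 throughout. Arrays of 1 group correlated with r of 0.9885 to 0.997 over probe sets. The median intensity of an array was 105.9 to 107.9 in *anc1*Δ with MMS and 104.0 to 105.2 in untreated *anc1*Δ. It was 114.7 to 119.8 in wildtype with MMS and 106.4 to 109.1 in untreated wildtype. The wildtype arrays with MMS thus had higher medians than all other arrays, and results with arrays centred on their medians are given below. The actin 3′ to 5′ signal ratio, a sign of RNA integrity and labelling, was 3.43 to 3.998 in *anc1*Δ with MMS against 1.74 to 1.85 in untreated *anc1*Δ, and 3.31 to 3.85 in wildtype with MMS against 1.47 to 1.68 in untreated wildtype. The ratio moved with MMS in both strains. It was also higher in untreated *anc1*Δ than in untreated wildtype, without overlap. Its part in the MMS changes and the strain differences below was not tested.

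A gene was called higher or lower at a limma p-value, adjusted by the Benjamini-Hochberg method over all 9275 probe sets, under 0.05 together with a fold of at least 1.5. With 3 arrays against 3 an exact permutation test, two-sided, cannot go below p = 0.1, and a pair of groups that do not overlap reaches that value. In cultures, a change of RNA per cell cannot be told apart from a change in the share of cells in a given cell cycle phase. Set beside the strain comparisons are therefore 20 genes transcribed at the G1/S boundary. Of these, 12 (60.0%) were lower and 1 (5.0%) higher in *anc1*Δ than in wildtype under MMS, against 18.4% and 10.9% of all genes. In untreated *anc1*Δ 7 (35.0%) were lower than in untreated wildtype, against 12.4% of all genes. Dim genes were not left out of the 20, such as *CLB6* at 12.6 in *anc1*Δ and 23.1 in wildtype under MMS. The part of the G1/S genes in the strain differences below was not tested.

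*MAG1* and *NTG1* rose with MMS in both strains. No other member was called in *anc1*Δ, while in wildtype *APN2* and *NTG2* rose and *OGG1* fell. In *anc1*Δ, 2 of the 9 genes were higher and 0 lower with MMS, where 16.0% of all genes were higher and 15.7% lower. At an unadjusted limma p under 0.05 there was 1 lower, and the Local Pooled Error (LPE) test, run as an alternative, called 0 lower. In wildtype, 4 were higher and 1 lower, where 27.7% of all genes were higher and 20.8% lower. By adjusted p alone, with no fold limit, 4 of the 9 passed in *anc1*Δ and 8 in wildtype, against 58.9% and 73.4% of all genes. The median log2 change of the 9 genes was 0.15 in *anc1*Δ (all genes, −0.01) and 0.54 in wildtype (all genes, 0.08).

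**Figure D1:**
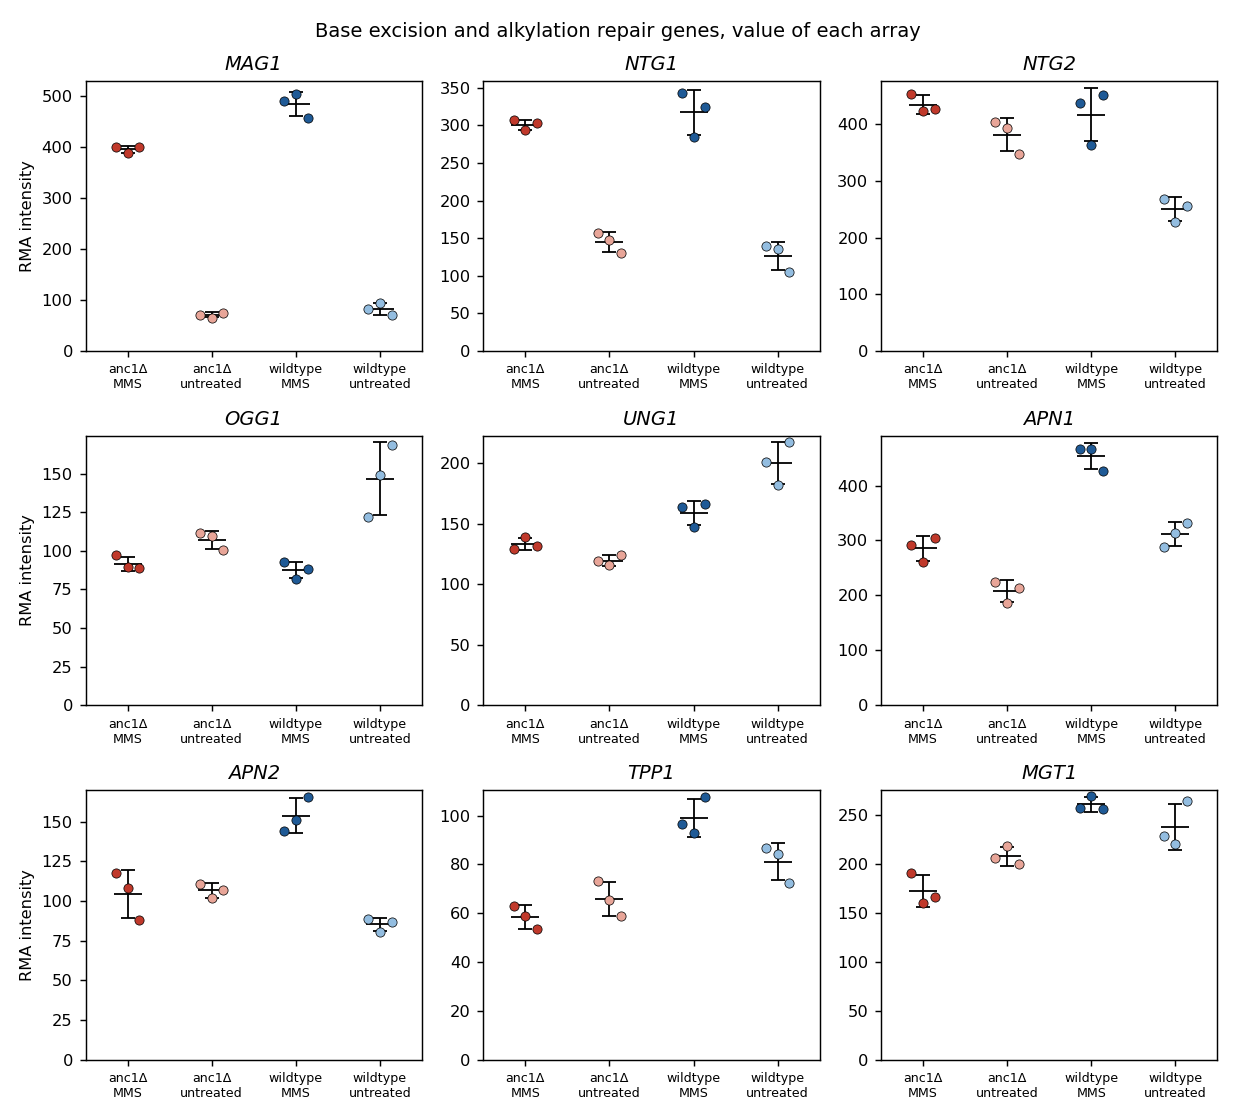
RMA intensity (linear axis from 0) of the 9 repair genes on each array, in *anc1*Δ with MMS, *anc1*Δ untreated, wildtype with MMS and wildtype untreated. Points are arrays and bars the mean ± SD of 3. *MAG1* is at 388.3 or above on every MMS array and at 93.5 or below on every untreated array, while *APN2* stands apart in wildtype with MMS alone.

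*MAG1* (YER142C), the glycosylase gene for methylated purines, changed most of the 9. It measured 399.8, 388.3 and 399.4 in *anc1*Δ with MMS against 70.9, 65.1 and 74.9 in untreated *anc1*Δ. In wildtype it measured 490.9, 503.2 and 457.7 with MMS against 81.8, 93.5 and 69.9 untreated. Every MMS array lay above every untreated array. The rise was 5.64-fold in *anc1*Δ (log2 change 2.50, SE 0.107, adjusted p = 2.66e-09) and 5.96-fold in wildtype (2.58, SE 0.107, adjusted p = 5.54e-10). The difference between these responses was −0.08 on the log2 scale (95% interval −0.41 to 0.25, adjusted p = 0.715). Under MMS all 3 *anc1*Δ arrays were below all 3 wildtype arrays (log2 difference −0.29, adjusted p = 0.0342, under the fold limit), and the untreated groups overlapped (−0.21, adjusted p = 0.240).

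*NTG1* and *NTG2* encode paralogous glycosylases that remove oxidized pyrimidines and also cut the strand. *NTG1* (YAL015C) measured 306.5, 293.8 and 302.5 in *anc1*Δ with MMS against 156.6, 147.0 and 130.6 in untreated *anc1*Δ. It measured 342.8, 284.9 and 324.3 in wildtype with MMS against 139.2, 135.1 and 105.1 in untreated wildtype. The strains overlapped in each condition, and the MMS and untreated groups did not. The rise was 2.09-fold in *anc1*Δ (log2 change 1.06, SE 0.119, adjusted p = 9.85e-06) and 2.52-fold in wildtype (1.33, SE 0.119, adjusted p = 4.98e-07), and the difference between the responses, −0.27 (95% interval −0.64 to 0.09), did not pass the test (adjusted p = 0.238). A further probe set, named for both *SCR1* and *NTG1*, was not used. It was dimmer, and it was lower with MMS in both strains. It measured 34.1, 35.2 and 35.2 in *anc1*Δ with MMS against 38.0, 44.6 and 44.3 in untreated *anc1*Δ. In wildtype it measured 17.9, 20.5 and 19.2 with MMS against 27.6, 31.3 and 28.9 untreated. Which gene its signal comes from was not tested.

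*NTG2* (YOL043C) differed between the strains without MMS. It measured 453.3, 422.8 and 427.4 in *anc1*Δ with MMS and 403.7, 393.9 and 347.8 in untreated *anc1*Δ. Its wildtype values were 437.3, 363.0 and 451.0 with MMS and 268.9, 227.4 and 256.0 untreated. Untreated wildtype was thus low and apart from the other groups, which lay between 347.8 and 453.3. *NTG2* was 1.52-fold higher in untreated *anc1*Δ than in untreated wildtype (log2 difference 0.61, SE 0.115, adjusted p = 0.00419). This call was lost at the fold limit without wildtype untreated replicate 2 (0.54), *anc1*Δ untreated replicate 1 (0.57) or *anc1*Δ untreated replicate 2 (0.58). The log2 change with MMS was 0.19 in *anc1*Δ (adjusted p = 0.164), where the groups did not overlap, and *NTG2* rose 1.66-fold with MMS in wildtype (0.73, SE 0.107, adjusted p = 4.75e-05). The responses differed by −0.54 (SE 0.151, adjusted p = 0.0178), under the fold limit, and passed that limit without wildtype untreated replicate 1 (−0.59), wildtype MMS replicate 2 (−0.64) or *anc1*Δ untreated replicate 3 (−0.61). Under MMS the strains overlapped, with a difference of 0.06 (95% interval −0.17 to 0.30, adjusted p = 0.620).

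*OGG1* (YML060W), the glycosylase gene for oxidized guanine, was the one member called lower with MMS. It measured 97.1, 89.3 and 88.7 in *anc1*Δ with MMS against 111.6, 109.5 and 100.6 in untreated *anc1*Δ, and the groups did not overlap. It measured 92.7, 82.0 and 88.1 in wildtype with MMS against 121.7, 149.4 and 168.8 in untreated wildtype. The untreated wildtype arrays were the highest and the most spread. The log2 change with MMS was −0.23 in *anc1*Δ (adjusted p = 0.121), and in wildtype *OGG1* fell by 0.73 on the log2 scale (SE 0.115, adjusted p = 8.45e-05). The difference between the responses was 0.51 (SE 0.162, adjusted p = 0.0323), under the fold limit, which it passed without wildtype untreated replicate 1 (0.64). Untreated *anc1*Δ was below untreated wildtype by 0.44 on the log2 scale (difference −0.44, adjusted p = 0.0335), also under the fold limit, and under MMS the strains overlapped (0.07, adjusted p = 0.634).

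*UNG1* (YML021C) encodes the glycosylase that takes uracil out of DNA. It measured 128.9, 138.7 and 131.2 in *anc1*Δ with MMS and 119.0, 115.6 and 123.9 in untreated *anc1*Δ. The wildtype arrays gave 163.5, 147.5 and 165.9 with MMS and 200.6, 182.0 and 217.3 untreated. No pair of neighbouring groups overlapped, in the order untreated *anc1*Δ, *anc1*Δ with MMS, wildtype with MMS, untreated wildtype. *UNG1* was 1.67-fold lower in untreated *anc1*Δ than in untreated wildtype (log2 difference −0.74, SE 0.108, adjusted p = 0.0012). The log2 change with MMS was 0.15 in *anc1*Δ (adjusted p = 0.184) and −0.33 in wildtype (adjusted p = 0.00624, under the fold limit), and these responses differed by 0.48 (SE 0.129, adjusted p = 0.0143, under the fold limit). Under MMS the strain difference was −0.26 (adjusted p = 0.0289, under the fold limit).

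**Figure D2:**
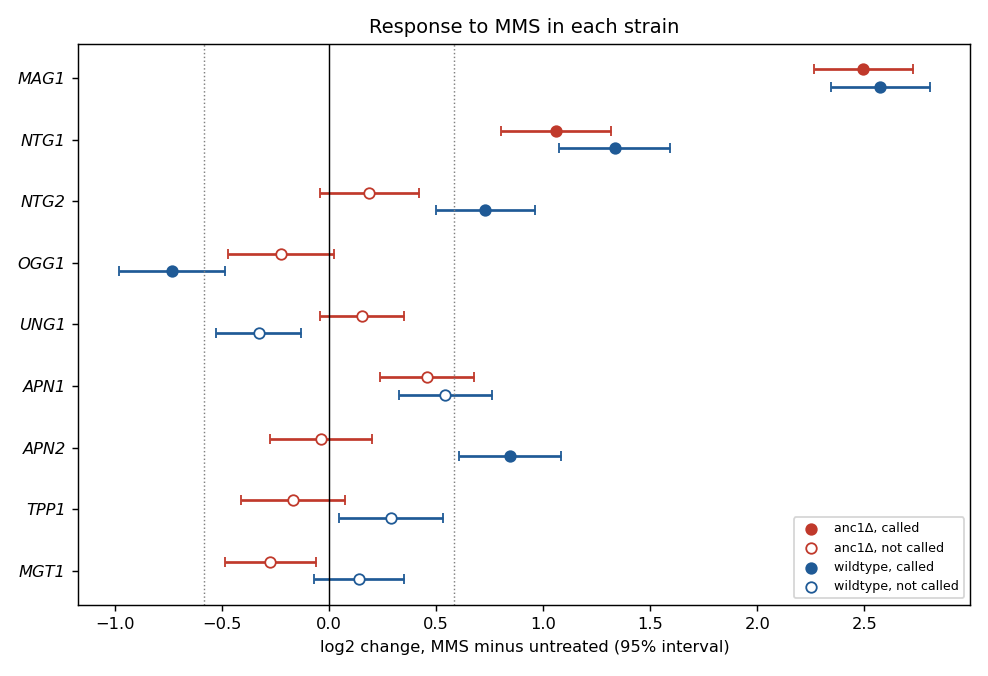
Log2 change with MMS (MMS minus untreated, with 95% intervals from the limma fit) of the 9 genes, *anc1*Δ above wildtype in each pair. Filled points were called, and dotted lines mark the 1.5-fold limit. *MAG1* and *NTG1* are filled in both strains, and *NTG2*, *OGG1* and *APN2* in wildtype alone.

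*APN1* and *APN2* encode the AP endonucleases, of which Apn1 supplies most of the activity in yeast cells. *APN1* (YKL114C) measured 291.1, 260.4 and 304.9 in *anc1*Δ with MMS against 223.8, 186.4 and 214.3 in untreated *anc1*Δ. It measured 466.5, 467.4 and 427.2 in wildtype with MMS against 288.5, 314.5 and 331.7 in untreated wildtype. The MMS arrays were above the untreated arrays in each strain, and the *anc1*Δ arrays below the wildtype arrays in each condition. The log2 change with MMS was 0.46 in *anc1*Δ (SE 0.101, adjusted p = 0.00213) and 0.54 in wildtype (SE 0.101, adjusted p = 0.000364), both under the fold limit, and the responses differed by −0.09 (95% interval −0.40 to 0.22). *APN1* was lower in *anc1*Δ than in wildtype under MMS, by 1.59-fold (log2 difference −0.67, SE 0.101, adjusted p = 0.00011), and untreated the difference was −0.58 (SE 0.116, adjusted p = 0.00506), just under the fold limit. The untreated difference passed the limit without wildtype untreated replicate 1 (−0.64), *anc1*Δ untreated replicate 1 (−0.64) or *anc1*Δ untreated replicate 3 (−0.61), as did the wildtype response without wildtype untreated replicate 3 or wildtype MMS replicate 3 (0.59 each). The difference under MMS lost its call when arrays were centred on their medians (−0.54) or quantile normalized again (−0.58).

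*APN2* (YBL019W) was the one member whose MMS response was called different between the strains. It measured 117.7, 108.1 and 88.1 in *anc1*Δ with MMS and 111.0, 101.7 and 107.1 in untreated *anc1*Δ, and these groups overlapped. It measured 144.0, 151.1 and 165.7 in wildtype with MMS against 88.8, 80.7 and 86.5 in untreated wildtype, with every MMS array above. On the log2 scale the MMS response was −0.04 in *anc1*Δ (95% interval −0.27 to 0.20, adjusted p = 0.815), and in wildtype *APN2* rose 1.80-fold (0.85, SE 0.110, adjusted p = 1.57e-05). The response in *anc1*Δ was lower than that in wildtype by 0.88 on the log2 scale (difference −0.88, SE 0.155, 95% interval −1.22 to −0.55, adjusted p = 0.00136). Under MMS *anc1*Δ was below wildtype (−0.56, SE 0.110, adjusted p = 0.000798), and untreated *anc1*Δ was above untreated wildtype (0.32, adjusted p = 0.0340), both under the fold limit. The difference under MMS passed that limit without wildtype MMS replicate 1 (−0.61), *anc1*Δ MMS replicate 1 (−0.65) or *anc1*Δ MMS replicate 2 (−0.59).

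*TPP1* (YMR156C) encodes the phosphatase that clears 3′ phosphates from broken DNA ends. It measured 63.2, 58.8 and 53.5 in *anc1*Δ with MMS and 73.1, 65.4 and 59.1 in untreated *anc1*Δ. In wildtype it measured 96.7, 92.8 and 107.8 with MMS and 86.7, 84.3 and 72.4 untreated. Under MMS the *anc1*Δ arrays were all below the wildtype arrays, whereas the untreated strains overlapped. *TPP1* was 1.69-fold lower in *anc1*Δ than in wildtype under MMS (log2 difference −0.76, SE 0.112, adjusted p = 8.94e-05), and the untreated difference was −0.30 (adjusted p = 0.0863). Its response to MMS on the log2 scale was −0.17 in *anc1*Δ (adjusted p = 0.236) and 0.29 in wildtype (adjusted p = 0.0348, under the fold limit). These responses differed by −0.46 (SE 0.158, adjusted p = 0.0444), also under the fold limit.

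*MGT1* (YDL200C) is the direct reversal gene of the set. It measured 190.7, 160.0 and 166.9 in *anc1*Δ with MMS and 205.9, 218.9 and 199.8 in untreated *anc1*Δ. Wildtype values were 257.5, 270.2 and 256.5 with MMS and 229.0, 220.4 and 264.1 untreated, and these groups overlapped. The *anc1*Δ arrays were below the wildtype arrays in both conditions, and in *anc1*Δ the MMS arrays were below the untreated arrays. *MGT1* was 1.52-fold lower in *anc1*Δ than in wildtype under MMS (log2 difference −0.60, SE 0.0979, adjusted p = 0.0002), against −0.19 untreated (adjusted p = 0.210). The call under MMS was lost at the fold limit without wildtype MMS replicate 2 (−0.58), *anc1*Δ MMS replicate 2 (−0.55) or *anc1*Δ MMS replicate 3 (−0.58), and with arrays centred on their medians (−0.48) or quantile normalized again (−0.47). With MMS the log2 change was −0.27 in *anc1*Δ (adjusted p = 0.0327, under the fold limit) and 0.14 in wildtype (95% interval −0.07 to 0.35, adjusted p = 0.219), and the responses differed by −0.41 (adjusted p = 0.0389, under the fold limit).

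Between the strains, 3 members were called under MMS and 2 without. Under median centring or renewed quantile normalization 1 was called under MMS, *TPP1*, and with single arrays left out the counts ranged from 2 to 4 under MMS and from 1 to 3 without MMS. Under MMS *APN1*, *TPP1* and *MGT1* were lower in *anc1*Δ, and 0 of 9 were higher by limma, by the LPE test or at an unadjusted p under 0.05, where 10.9% of all genes were higher and 18.4% lower. Without MMS, *NTG2* was higher and *UNG1* lower, that is 1 of 9 in each direction, where 11.1% of all genes were higher and 12.4% lower. Of all genes, 619 were higher and 1038 lower under MMS, and with arrays centred on their medians 768 were higher and 672 lower. By adjusted p alone 6 of 9 passed under MMS and 5 of 9 without MMS, against 59.8% and 44.8% of all genes. The median log2 difference of the 9 genes was −0.29 under MMS (all genes, −0.18) and −0.21 without MMS (all genes, −0.10).

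**Figure D3:**
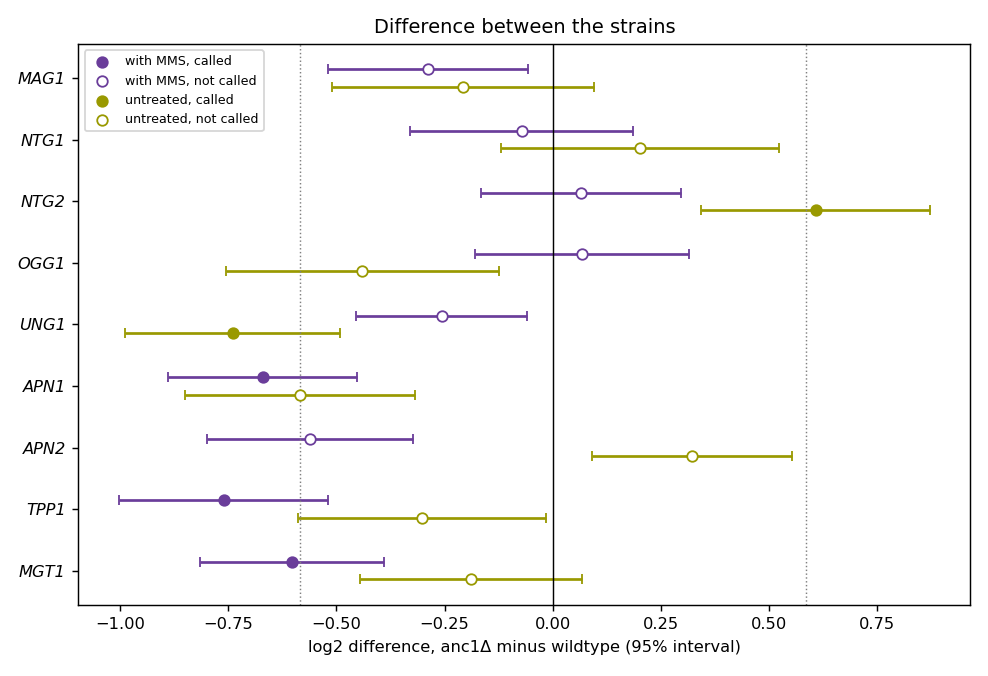
Log2 difference between the strains (*anc1*Δ minus wildtype, with 95% intervals from the limma fit) for the 9 genes, with MMS above untreated in each pair. Filled points were called, and dotted lines mark the 1.5-fold limit. With MMS *APN1*, *TPP1* and *MGT1* are filled on the lower side. Untreated, *NTG2* is filled on the higher side and *UNG1* on the lower side.

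The difference between the strains in MMS response was called for 1 of 9 genes, *APN2*, on the lower side, where 9.58% of all genes were on the higher and 14.2% on the lower side. The split over all genes was 542 to 805, and 666 to 627 with arrays centred on their medians. By adjusted p alone 6 of 9 passed, against 35.5% of all genes. These were *APN2*, *NTG2*, *MGT1* and *TPP1*, with a lower value in *anc1*Δ than in wildtype, and *OGG1* and *UNG1*, with a higher one. The median of the 9 was −0.27 (all genes, −0.08). The 3 without a difference past the adjusted p, *MAG1*, *NTG1* and *APN1*, had intervals that together ran from −0.64 to 0.25.

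*MAG1* shares an intergenic region with its chromosomal neighbour *DDI1*, which encodes a ubiquitin-binding protein that shuttles substrates to the proteasome. *DDI1* measured 1765.2, 1866.3 and 1833.1 in *anc1*Δ with MMS against 289.8, 285.9 and 292.4 in untreated *anc1*Δ. In wildtype it measured 1926.9, 2100.5 and 1907.5 with MMS against 289.2, 258.4 and 207.5 untreated. Both strains showed the high MMS and low untreated levels seen for *MAG1*, with log2 rises of 2.65 in *anc1*Δ and 2.99 in wildtype (adjusted p = 1.99e-09 and 2.27e-10). Their difference was −0.33 (95% interval −0.67 to 0.0048, adjusted p = 0.125).

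*RPN4*, the transcriptional activator of the proteasome genes and a known regulator of *MAG1*, had another order of levels. It measured 1620.1, 1481.7 and 1544.7 in *anc1*Δ with MMS and 883.1, 816.4 and 775.7 in untreated *anc1*Δ. In wildtype it measured 999.4, 1019.6 and 929.2 with MMS and 349.0, 392.3 and 229.7 untreated. *RPN4* was higher in *anc1*Δ in both conditions, by 0.66 under MMS (adjusted p = 0.00306) and 1.38 untreated (adjusted p = 0.000902). *MAG1* was not called between the strains in either, though under MMS it was lower in *anc1*Δ under the fold limit (−0.29, adjusted p = 0.0342). The part of *RPN4* in the *MAG1* levels was not tested. *RPN4* rose by 0.91 in *anc1*Δ and by 1.64 in wildtype with MMS, and the responses differed by −0.73 (adjusted p = 0.0259). *PDR1*, which encodes a drug-resistance activator, rose by 1.29 in *anc1*Δ and 2.46 in wildtype, a difference of −1.17 (adjusted p = 0.00613). *PDR3*, its paralogue, was not called in any comparison, with MMS changes of 0.05 in *anc1*Δ and 0.29 in wildtype.

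**Figure D4:**
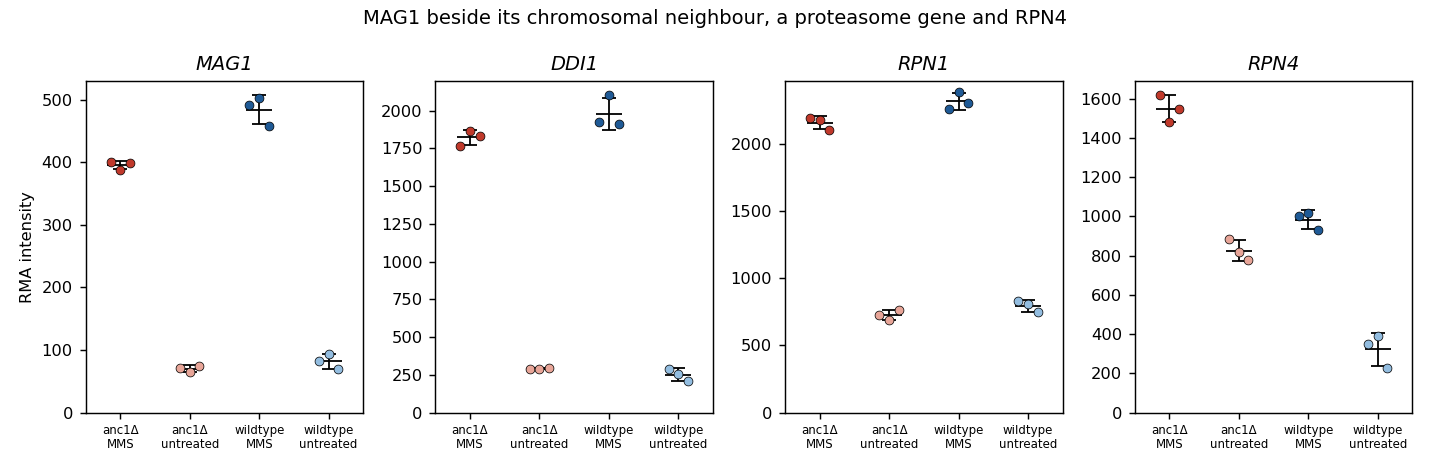
RMA intensity (linear axes from 0, with a separate scale for each gene) of *MAG1*, its neighbour *DDI1*, the proteasome gene *RPN1* and the regulator gene *RPN4* in the 4 groups. Points are arrays and bars the mean ± SD of 3. No strain difference was called for *MAG1*, *DDI1* or *RPN1* in either condition. *RPN4* is higher in *anc1*Δ, at 825 ± 54.2 against 324 ± 84.2 in wildtype without MMS.

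The genes whose log2 profile over the 12 arrays was most like that of *MAG1*, among the 5210 genes whose probe set was not in the dimmest 25% of all probe sets, were *RPN1* (Pearson's r 0.998), *NPL4*, *RPT3*, *LPL1* and *UBP6* (0.996 for the fifth). *RPN1* and *RPT3* encode proteasome subunits, and Ubp6 is a deubiquitinating enzyme of the proteasome. *DDI1* had r of 0.990 with *MAG1*, *NTG1* 0.968 and *RPN4* 0.698. For *NTG1* the nearest were *AIM21*, *RQT4*, *YOR034C-A*, *ENT3* and *AHC1* (0.986 to 0.985), and for *APN2* they were *YPL071C*, *MET10*, *SEG1*, *JHD2* and *GOR1* (0.949 to 0.935). For *NTG2* they were *YPL119C-A*, *ZRG8*, *UBP15*, *GCY1* and *IDP2* (0.955 to 0.945), and for *OGG1* they were *UPA2*, *RTT10*, *YPQ1*, *REX4* and *ALE2* (0.989 to 0.960). These values are descriptions over arrays that share 4 groups and 1 normalization, so that any gene with a like MMS change scores high.

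Of 32 measured genes of the 26S proteasome, which degrades ubiquitin-tagged proteins, 31 were higher with MMS in *anc1*Δ and 32 in wildtype. Of all genes, 16.0% were higher in *anc1*Δ and 27.7% in wildtype. The median log2 change of the 32 was 1.22 in *anc1*Δ and 1.43 in wildtype, against −0.01 and 0.08 over all genes. *RPT3* rose by 1.93 in *anc1*Δ and 2.22 in wildtype, *RPN1* by 1.57 in *anc1*Δ and 1.54 in wildtype, and *RPT2* by 1.82 in *anc1*Δ and 2.08 in wildtype. Under MMS 3 (*RPT1* −0.78, *PRE4* −0.63 and *PUP3* −0.60) were lower in *anc1*Δ than in wildtype (9.4%, against 18.4% of all genes). Between the untreated strains 0 of 32 were called by limma or the LPE test (2 higher and 4 lower at an unadjusted p under 0.05). There 11.1% of all genes were higher and 12.4% lower.

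The later steps of base excision repair, gap filling, flap removal and ligation, were followed in 14 genes. With MMS, 5 of 14 (35.7%) rose in *anc1*Δ and 4 (28.6%) in wildtype, where 16.0% and 27.7% of all genes were higher, so that the wildtype share was near that of all genes. Of the 14, 0 fell in either strain by limma or the LPE test (1 lower in *anc1*Δ and 2 in wildtype at an unadjusted p under 0.05). *RAD27*, the flap endonuclease gene and chromosomal neighbour of *APN1*, rose by 1.22 in *anc1*Δ (adjusted p = 1.05e-06) and by 0.87 in wildtype (adjusted p = 9.11e-06). *POL31*, for a subunit of DNA polymerase delta, rose by 0.72 in *anc1*Δ and 0.83 in wildtype, and *POL30*, for the sliding clamp, by 0.69 in *anc1*Δ and 0.72 in wildtype. The median change was 0.28 in *anc1*Δ and 0.30 in wildtype, and limma called 0 of 14 for a difference in response (3 higher and 0 lower in *anc1*Δ at an unadjusted p under 0.05). Between the strains, 3 of 14 (21.4%, against 18.4% of all genes) were lower in *anc1*Δ under MMS, namely *POL30* (−1.06), *DPB2* (−0.82) and *POL31* (−0.78). Untreated, 6 (42.9%, against 12.4% of all genes) were lower, among them *POL30* (−1.03), *DPB2* (−0.79), *POL31* (−0.67) and the ligase gene *CDC9* (−0.62). Also among the 6 was *POL32*, which was dim, at 13.6 in untreated *anc1*Δ and 21.0 in untreated wildtype. The median difference was −0.24 under MMS and −0.50 untreated. Several of these genes are known to be transcribed at the G1/S boundary, though none of the 14 is in the G1/S list above. The part of the cell cycle phase in their strain differences was not tested.

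A list of 9 measured genes covered other routes at AP sites and blocked 3′ ends, mismatch recognition and the nucleotide pool. Of these, 0 were higher and 1 (11.1%) lower with MMS in *anc1*Δ, and 3 (33.3%) higher and 1 (11.1%) lower in wildtype. Over all genes, 16.0% were higher and 15.7% lower in *anc1*Δ, and 27.7% higher and 20.8% lower in wildtype. Of the 9, the LPE test called 1 higher in *anc1*Δ, and 2 were higher there at an unadjusted p under 0.05. *DUT1*, the dUTPase gene that keeps uracil out of DNA, fell by 1.32 in *anc1*Δ (adjusted p = 7.48e-08) and by 1.56 in wildtype (adjusted p = 5.68e-09). It was also lower in *anc1*Δ than in wildtype, with differences of −0.72 under MMS and −0.96 untreated. *PCD1*, which encodes a Nudix hydrolase, changed by 0.26 in *anc1*Δ (adjusted p = 0.207, not called) and rose by 1.36 in wildtype, and the responses differed by −1.10 (adjusted p = 0.00401). *PCD1* was 0.92 higher in untreated *anc1*Δ than in untreated wildtype (adjusted p = 0.00744). In wildtype the structure-specific nuclease gene *RAD1* rose by 0.69 as well. The third gene called higher there, *MUS81*, was dim, at 26.3 with MMS and 14.2 untreated, and the untreated level lay in the range of the deleted *TAF14* in *anc1*Δ, so no fold is given.

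Other repair routes were followed as well. With MMS, 16.0% of all genes were higher and 15.7% lower in *anc1*Δ, and 27.7% higher and 20.8% lower in wildtype. A lower response in *anc1*Δ was called for 14.2% of all genes. Of 21 nucleotide excision repair genes, 7 (33.3%) were higher and 1 (4.76%) lower with MMS in *anc1*Δ, and 11 (52.4%) higher and 1 (4.76%) lower in wildtype. Their medians were 0.37 in *anc1*Δ and 0.63 in wildtype. The endonuclease gene *RAD2* rose by 1.45 in *anc1*Δ and 2.09 in wildtype. *RAD4*, *RAD7*, *RAD26* and *RAD2* were among 5 of the 21 genes (23.8%) with a called lower response in *anc1*Δ. Of 19 homologous recombination genes, 7 (36.8%) were higher in *anc1*Δ with MMS and 10 (52.6%) in wildtype, with 1 (5.26%) lower in wildtype. Their medians were 0.40 in *anc1*Δ and 0.64 in wildtype, and 2 of the 19 (10.5%) had a called lower response in *anc1*Δ. *RAD54*, a strand-exchange motor gene, rose by 1.89 in *anc1*Δ and 2.52 in wildtype. Of 16 damage-induced genes, 11 (68.75%) were higher and 2 (12.5%) lower in *anc1*Δ and 14 (87.5%) higher and 2 (12.5%) lower in wildtype. A lower response in *anc1*Δ was called for 11 of the 16 (68.75%). Among these were *RNR3*, a ribonucleotide reductase gene, at −2.27 and *HUG1*, which encodes an inhibitor of that enzyme, at −1.94. *PLM2*, another of the 16 genes, was dim without MMS, at 8.5 in *anc1*Δ and 12.4 in wildtype.

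**Figure D5:**
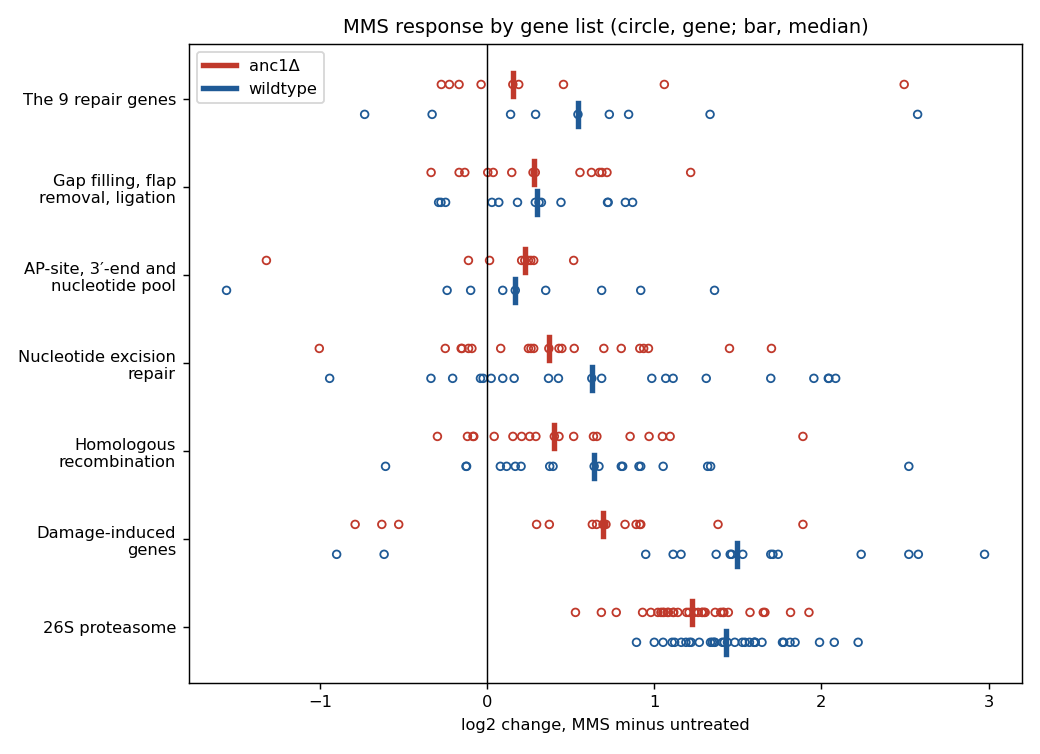
Log2 change with MMS (MMS minus untreated) of each measured gene in 7 groups of genes, *anc1*Δ above wildtype. Circles are genes and bars medians. The 9 repair genes have medians of 0.15 in *anc1*Δ and 0.54 in wildtype, and the 32 proteasome genes medians of 1.22 and 1.43.

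Of 15 general stress genes, 15 were higher in untreated *anc1*Δ than in untreated wildtype (median log2 difference 2.09), against 11.1% of all genes. With MMS, 6 of the 15 were higher and 2 lower in *anc1*Δ, against 16.0% and 15.7% of all genes. In wildtype 14 of the 15 were higher with MMS, against 27.7% of all genes. Some of the 15 varied widely among the untreated wildtype arrays, such as *HSP42* at 1183.6, 953.3 and 358.3. Others varied less, such as *HSP26* at 654.3, 957.3 and 839.5. Of the 9 repair genes, *NTG2* was the one called higher both in untreated *anc1*Δ and in wildtype with MMS over untreated wildtype, comparisons that share their untreated wildtype arrays. The part of the stress response in its levels was not tested.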

How the data were processed

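The authors hybridized RNA to 12 Affymetrix YG-S98 arrays and applied RMA. They deposited linear intensity values of 9335 probe sets. The sources used here do not say which arrays entered RMA as 1 set, and the authors' detection calls played no part. Without 60 controls, 6504 of 9275 named 1 gene, 328 several and 2443 none in the probe annotation. Symbols were updated through Entrez identifiers (RefSeq table). The brightest probe set stood for each of 5656 genes.

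The log2 intensities entered linear models (lmFit, eBayes) of limma 3.58.1 under R 4.3.3, with p adjusted by Benjamini-Hochberg over 9275 probe sets. The untreated strains were compared on 6 arrays and the other comparisons, with the interaction contrast (response in *anc1*Δ minus response in wildtype), on all 12. The scripts were tested on simulated data. The members and the 9 lists of other genes (150 of 154 entries measured, the other 4 not analysed here) were chosen with earlier results of these data known. Named genes are the members, *TAF14*, *DDI1*, *RPN4*, *PDR3*, up to 4 called genes of a list with the smallest p, and the 5 genes most like each member called in wildtype. A further list of strain and mating type markers served to check the labels, and *URA3* and *STE3*, which were not called, are named from it. *CLB6*, *POL32* and *PLM2* are named for a dim signal, and *HSP42* and *HSP26* for their spread in untreated wildtype.

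Same-numbered arrays deviated together from their group means for *anc1*Δ with MMS and *anc1*Δ untreated (r 0.167 to 0.373 over probe sets). Unlike numbers in these groups gave −0.384 to 0.141. However, *anc1*Δ MMS replicate 1 and wildtype untreated replicate 2, of different strains, gave 0.343. These values thus cannot settle whether the numbers pair arrays, and the main tests used no pairing. In every other pair of groups the lowest same-numbered r was negative. The alternatives were the replicate block, each array left out, only the arrays compared or all 12, median centring, renewed quantile normalization, no probe sets among the dimmest 25%, a prior variance that follows intensity, probe sets averaged by gene, other fold limits, and the Local Pooled Error (LPE) test of the study's methods, written anew with 100 intensity bins.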

Additional observations from a re-analysis of the deposited data

Results flagged for a closer look

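The log2 response of *APN2* to MMS was lower in *anc1*Δ than in wildtype, with a difference of −0.88 between the responses (adjusted p = 0.00136 by limma), and it was the one member of the 9 for which this difference itself passed the test and the fold limit. All 3 wildtype arrays with MMS, at 144.0 to 165.7, lay above the 9 other arrays, of which the highest was at 117.7, in *anc1*Δ with MMS. Groups of 3 arrays were not tested for single deviating arrays.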

How the results depend on the processing

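Of 675 member changes recomputed under the alternatives, 644 kept direction and call, 13 gained and 10 lost a call, and 8 changed sign, each of them a difference near 0. The *APN2* difference in response (−0.97 to −0.76), the *UNG1* difference between untreated strains (−0.81 to −0.68), the *TPP1* difference under MMS (−0.82 to −0.63) and the *MAG1* responses (2.44 to 2.54 in *anc1*Δ, 2.46 to 2.68 in wildtype) kept theirs under all alternatives at the 1.5-fold limit. With no fold limit the members called were 6 between the strains under MMS, 5 between the untreated strains, 4 for MMS in *anc1*Δ, 8 for MMS in wildtype and 6 for the difference in response, with 3383, 2533, 3332 and 4151 of all genes for the first 4. With a limit of 2 they were 0, 0, 2, 2 and 0, with 566, 475, 661, 1487 and 440 of all genes. Under median centring 1 member was called between the strains under MMS and 2 for the difference in response, where *OGG1* (0.59) joined *APN2*, and under renewed quantile normalization 1 was called between the strains under MMS. Median centring moved the median of all probe sets to −0.19 for MMS in wildtype and 0.11 between the strains under MMS, against −0.08 and −0.01 as deposited. With single arrays left out, the members called ranged from 2 to 4 between the strains under MMS, 1 to 3 between the untreated strains, 2 to 2 for MMS in *anc1*Δ, 5 to 6 for MMS in wildtype and 1 to 3 for the difference in response. All genes called ranged from 1568 to 1761, 1270 to 1512, 1761 to 1797, 2687 to 2800 and 1190 to 1488 in that order.

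The sign changed for *APN2* with MMS in *anc1*Δ without *anc1*Δ MMS replicate 3 (0.0825) and by the LPE test (0.0134), and for *NTG2* between the strains under MMS without wildtype MMS replicate 2 (−0.0320) and by the LPE test (−0.0329). It changed for *NTG1* between the strains under MMS with median centring (0.0547) and renewed quantile normalization (0.0280), and for the *MAG1* difference in response without wildtype untreated replicate 3 (0.0273) and with median centring (0.00345). With single arrays left out these values ranged from −0.126 to 0.0825 for *APN2*, −0.0320 to 0.125 for *NTG2* and −0.182 to 0.0273 for *MAG1*. The cause was not tested. With the replicate number as a block no member call changed in any comparison, and the block gave 1664 genes between the strains under MMS, 1331 between the untreated strains, 1795 for MMS in *anc1*Δ, 2745 for MMS in wildtype and 1346 for the difference in response. A block on the 6 *anc1*Δ arrays alone, chosen after seeing the data, gave 1798 genes and the same 2 members. The LPE test was not run for the difference in response. The number of arrays, and an exact test that cannot fall below 0.1, limit all single values.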
